A study of Homo sapiens with 4 samples.

Results

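RNA of 37 genes that shape chromosomes was followed through 4 libraries of RPE1 cells, a telomerase-immortalised human line from the retinal pigment epithelium. The genes encode subunits, loaders and regulators of cohesin, condensin and the SMC5/6 complex, the zinc finger proteins CTCF, ZNF143 and YY1, the nuclear topoisomerases TOP1, TOP2A and TOP2B, high mobility group (HMG) and heterochromatin protein 1 (HP1) family members, and the nucleosome remodeller CHD4. They were taken by symbol from a fixed list, and all 37 were found among the 25027 symbols or unmatched identifiers of the deposited tables. Cells received 10 nM of a Stealth siRNA against SAF-A (scaffold attachment factor A, encoded by HNRNPU) or of a negative control Stealth siRNA, and total RNA was taken 24 h or 48 h later, depleted of ribosomal RNA and read as 50-base single-end reads. Each of the 4 conditions had 1 library, so no difference has a replicate check and none was tested. HNRNPU itself stood at 91.2 and 84.6 FPKM (fragments scaled by transcript length and by mapped reads) with control siRNA at 24 h and 48 h, and at 10.4 and 9.24 FPKM with SAF-A siRNA, low in both libraries labelled SAF-A.

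Cohesin, condensin and SMC5/6 are ring-shaped ATPases built on pairs of SMC proteins. Cohesin holds sister chromatids together and extrudes chromatin loops that stop at sites bound by CTCF, condensin compacts chromosomes for mitosis, and SMC5/6 acts in DNA repair and replication. Topoisomerases relax and untangle the DNA that these machines fold, HMG proteins bend DNA or loosen nucleosomes, and HP1 proteins bind the methylated histones of heterochromatin. In cycling cells the RNA of condensin subunits, TOP2A and the cohesin protector sororin (CDCA5) accumulates towards mitosis, whereas most cohesin subunits, CTCF and TOP2B are also made in cells that do not divide. The 37 genes were therefore described as 10 cell-cycle-linked members (CDCA5, SMC2, SMC4, NCAPD2, NCAPD3, NCAPG, NCAPG2, NCAPH, TOP2A and HMGB2) and 27 constitutive members. The condensin subunit NCAPH2 was counted among the constitutive members. This split was made with earlier results of these data known.

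The libraries differed in depth. The deposited values imply between 28083822 and 30701282 mapped reads in the libraries of control siRNA and of SAF-A siRNA at 24 h, but 1216740 in the SAF-A library at 48 h, where a member rested on 10 to 517 estimated reads (median 82) against 612 to 16865 (median 3416) in the other libraries. All results on SAF-A siRNA at 48 h rest on that library; the 24 h comparison and the comparison of the control libraries do not use it. The 95% intervals deposited with each value cover the estimation of abundance within a library, not variation between cultures. Of 10 retinal pigment epithelium markers only KRT8, KRT18, MITF and OTX2 reached 1 FPKM; RPE65 and TTR were listed at 0 in all 4 libraries and TYR, RLBP1, PMEL and BEST1 stayed below 1 FPKM. The summed level of the 10 ranged from 46.1 to 306 FPKM, and was mostly that of KRT18, which like KRT8 carried a failed status in at least 1 row. Of 5 immune markers only CD68 reached 1 FPKM (summed level 7.35 to 11.3 FPKM), and of 3 endothelial markers none did.

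Together the members were abundant transcripts. Their median was 28.3 FPKM in the control library at 24 h, where the median of all tested genes was 9.91 FPKM, and it was 26.6 FPKM in SAF-A 24 h, 26.3 FPKM in control 48 h and 18.6 FPKM in SAF-A 48 h. HMGA1 was the highest member in the control libraries and in SAF-A 24 h, at 205 to 218 FPKM, and the cohesin loader NIPBL was the lowest there, at 2.57 to 3.10 FPKM. In SAF-A 48 h the highest was HMGA2, at 113 FPKM, and the lowest SMC1A, at 0.858 FPKM. Across the 37 genes the order of levels was nearly the same in control 24 h and SAF-A 24 h (Spearman's rho 0.988) and in the control libraries at 24 h and 48 h (0.987), and less so between control 48 h and the shallow SAF-A 48 h library (0.724). These are correlations across genes, which are not independent replicates.

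**Figure D1:**
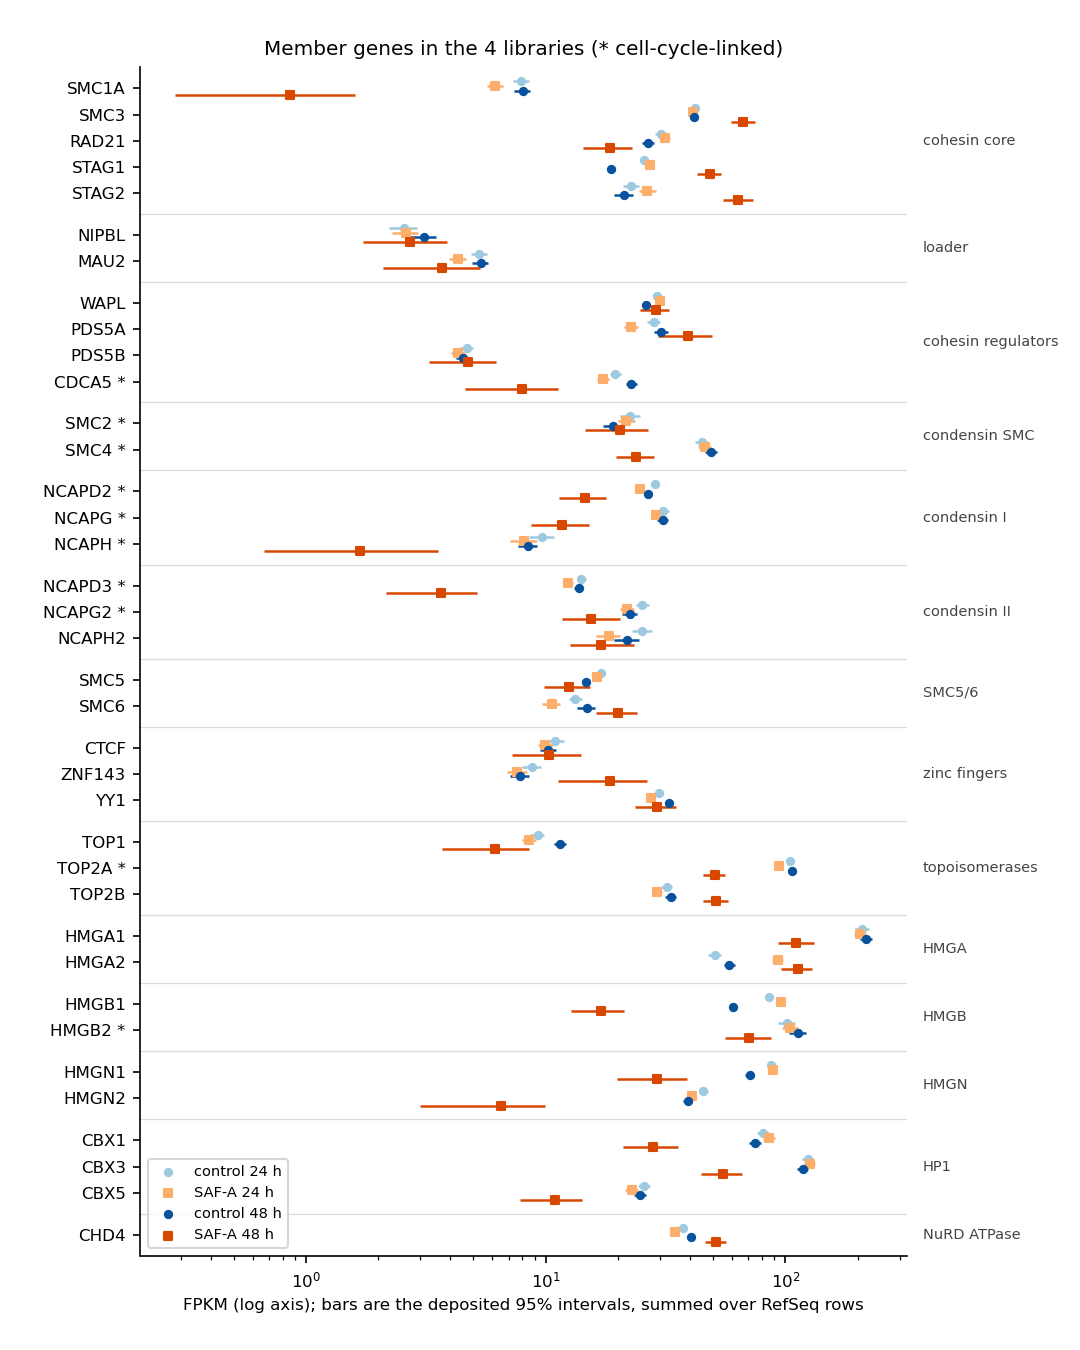
Level of each member in the 4 libraries, with FPKM on a logarithmic axis, genes grouped by role, and horizontal bars for the deposited 95% intervals. The markers of the 24 h libraries and of control 48 h lie close together for most genes, while those of SAF-A 48 h lie apart to the left (SMC1A, NCAPH, HMGN2) or to the right (STAG1, STAG2, ZNF143).

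Differences between libraries were taken on the log2(FPKM + 1) scale, which understates the change of low genes, and a gene was called changed when it differed at least 2-fold on that scale. At 24 h no member was changed, against 0.389% of the 11053 tested genes higher and 0.244% lower. At 48 h 3 members were higher with SAF-A siRNA (STAG1, STAG2 and ZNF143), which is 8.11% of them beside 14.3% of tested genes. At that time 13 members were lower (SMC1A, CDCA5, SMC4, NCAPD3, NCAPG, NCAPH, TOP2A, HMGB1, HMGN1, HMGN2, CBX1, CBX3 and CBX5), which is 35.1% of them beside 18.5% of tested genes. The deposited intervals of all 16 were apart, that is, did not overlap. Between 24 h and 48 h of control siRNA no member was changed (0.561% of tested genes higher, 0.425% lower), and between 24 h and 48 h of SAF-A siRNA 2 members were higher (STAG2 and ZNF143) and 11 lower (15.5% and 16.0% of tested genes). The 48 h comparison of siRNAs and the SAF-A time comparison share the SAF-A 48 h library.

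The choice of scale moves these background shares, and with it the set of tested genes. That set held 11053 genes as deposited, 11133 on the TPM scale and 12583 after rescaling over protein-coding (NM_) rows alone. The shifts below therefore mix scale with a change of genes, and their parts were not separated. With FPKM rescaled over NM_ rows, the median of the genes tested on each scale went from -0.11 to -0.46 at 48 h. The higher genes went from 43.7% to 22.8% of all changed genes. For SAF-A siRNA over time the same rescaling moved that median from -0.01 to -0.35 and the share of higher genes from 49.2% to 26.0%. Rescaling to TPM moved the share of higher genes from 61.4% to 42.6% at 24 h, from 56.9% to 68.3% for control siRNA over time, and from 49.2% to 63.8% for SAF-A siRNA over time. Its median of all tested genes at 24 h was -0.23, against -0.07 as deposited, and for SAF-A siRNA over time 0.18. Among the members 14 took both signs over these scalings and centrings at 24 h (CBX1, CBX3, HMGA1, HMGB1, HMGB2, HMGN1, NIPBL, RAD21, SMC2, SMC3, SMC4, SMC5, STAG1 and WAPL). At 48 h 7 did (CTCF, NIPBL, PDS5B, SMC2, SMC5, WAPL and YY1), none of them changed 2-fold.

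Of the 10 cell-cycle-linked members 6 were at least 2-fold lower with SAF-A siRNA at 48 h and none was higher, beside 18.5% and 14.3% of tested genes. Their median difference was -1.04, whereas the 27 constitutive members had a median of -0.15 with 3 higher and 7 lower, and all tested genes had a median of -0.11. Several calls lie near 2-fold: centred on the median of tested genes, SMC4 (-0.91), TOP2A (-0.94) and CBX3 (-0.99) fell short of it, which leaves 4 of the 10 cell-cycle-linked members and 10 of the 13 lower members. At 24 h the medians were -0.16, -0.09 and -0.07 in that order, with no member changed. Over time the cell-cycle-linked median was -0.02 with control siRNA and -0.90 with SAF-A siRNA, against -0.05 in both comparisons for the constitutive members. A narrower choice of 6 cell-cycle-linked members gave a 48 h median of -1.19, and a broader choice of 15, which adds NCAPH2, HMGB1, HMGN2, CBX5 and RAD21, gave -1.05. Each added member was itself lower at 48 h (-0.34 to -2.42). The main split and both other choices were made with earlier results of these data known, so none of them is an independent check. In whole cultures, fewer cells in a cycle phase and less RNA per cell cannot be told apart. Beside this stood 10 proliferation markers, whose summed level was 691 and 606 FPKM with control and SAF-A siRNA at 24 h, and 642 and 352 FPKM at 48 h. BUB1, CCNA2, CDK1, MCM2, MKI67, PLK1 and RRM2 were at least 2-fold lower at 48 h, as were 18.5% of tested genes. AURKB, CCNB1 and PCNA were not, and the part of these markers in the result was not tested.

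**Figure D2:**
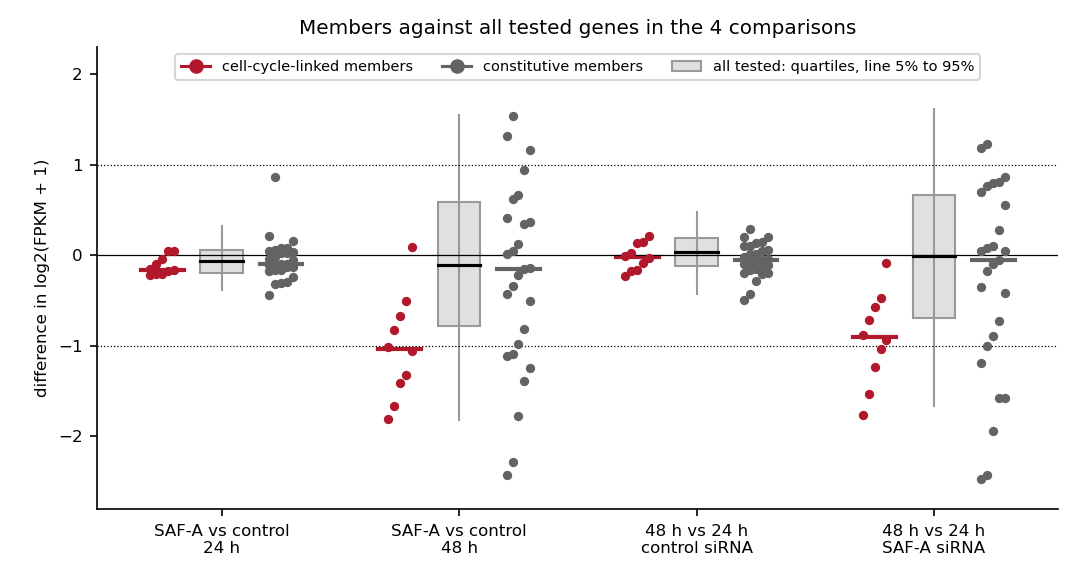
Difference in log2(FPKM + 1) of each member in the 4 comparisons, cell-cycle-linked members at left in red and constitutive members at right in grey with their medians as bars, beside the quartiles and the 5% to 95% range of all 11053 tested genes. At 48 h the cell-cycle-linked median lies at -1.04, below the lower quartile of all tested genes at -0.78, and the constitutive members spread from -2.42 to 1.54.

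The core of cohesin did not move as 1 unit at 48 h. SMC1A, an ATPase arm of the ring (chrX:53401070-53449677, minus strand, hg19), was listed at 7.92, 6.15, 8.01 and 0.858 FPKM. Here and below, levels run from control to SAF-A siRNA at the earlier time and then from control to SAF-A siRNA at the later time. Its partner SMC3 (chr10:112327449-112364392, plus strand) stood at 42.1, 41.0, 41.7 and 66.9 FPKM. The values of SMC1A in the control libraries are close together, and both SAF-A libraries lie below them with intervals apart, while SMC3 departs from the others only in SAF-A 48 h, upwards. SMC1A was at 77.7% of control at 24 h (log2 difference -0.32) and 10.7% at 48 h (-2.28), the latter from about 10 reads with an interval of 0.285 to 1.60 FPKM. SMC3 was at 160% of control at 48 h (0.67). In FPKM, SMC1A made up 15.8%, 13.0%, 16.1% and 1.27% of the summed level of both genes.

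The SA subunits of cohesin, of which each ring carries 1, were both higher at 48 h. STAG1 (chr3:136055999-136471245, minus strand) was measured at 25.7, 27.1, 18.8 and 48.4 FPKM, a 48 h level of 258% of control (1.32). STAG2 (chrX:123094410-123236505, plus strand) was measured at 22.8, 26.6, 21.2 and 63.6 FPKM, or 299% of control (1.54). For both genes the SAF-A 48 h interval lies above those of the other libraries, and the low value of STAG1 in control 48 h adds to its ratio: against SAF-A 24 h the difference was 0.81, short of 2-fold. STAG2 took 47.0%, 49.5%, 53.1% and 56.8% of their sum. RAD21, the kleisin that closes the ring, was at 30.2, 31.4, 26.8 and 18.5 FPKM, 69.2% of control at 48 h (-0.51), with intervals apart but less than 2-fold lower.

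Loader and release factors of cohesin, apart from CDCA5, differed less. NIPBL, which loads cohesin with MAU2, was at 2.57, 2.62, 3.10 and 2.73 FPKM with overlapping intervals between siRNAs at both times. MAU2 (chr19:19431630-19469563, plus strand) was at 5.29, 4.31, 5.35 and 3.71 FPKM. Both SAF-A values of MAU2 are below their controls, with intervals apart at 24 h (81.4%, -0.25) and overlapping at 48 h (69.3%, -0.43). WAPL, which releases cohesin from chromatin, was at 29.0, 29.9, 26.3 and 28.8 FPKM, and its partner PDS5B at 4.68, 4.32, 4.54 and 4.73 FPKM. Neither gene showed intervals apart between siRNAs. PDS5A was at 28.3, 22.8, 30.3 and 39.4 FPKM, lower with intervals apart at 24 h (-0.30) and higher with overlapping intervals at 48 h (0.37). CDCA5 (chr11:64844927-64851615, minus strand), which shields cohesin from WAPL in dividing cells and is the only cell-cycle-linked member of this group, was at 19.6, 17.4, 22.8 and 7.97 FPKM. It was lower with intervals apart at both times, at 88.9% of control at 24 h (-0.16) and 35.0% at 48 h (-1.41, about 23 reads).

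Of the 8 condensin genes 4 were at least 2-fold lower at 48 h (SMC4, NCAPG, NCAPH and NCAPD3), beside 18.5% of tested genes. NCAPD2 and NCAPG2 were lower by less with intervals apart, and SMC2 and NCAPH2 had overlapping intervals. SMC2, the ATPase common to condensin I and II (chr9:106856541-106903700, plus strand), was at 22.5, 21.7, 19.1 and 20.3 FPKM, and its intervals overlapped in every comparison. Its partner SMC4 (chr3:160117430-160152741, plus strand) was at 44.7, 46.1, 49.1 and 23.7 FPKM. Its values are similar in 3 libraries, and in SAF-A 48 h it was at 48.4% of control (-1.02), just past 2-fold. The SMC4 call ends under each of the 3 centrings (-0.75 to -0.91) and on its highest row alone (-0.09), NM_001002800, which was at 22.9, 20.2, 25.4 and 23.7 FPKM. Its other row, NM_005496, was at 21.9, 25.9, 23.7 and 0.00165 FPKM. Its share of the SMC2 and SMC4 sum was 66.5%, 68.0% and 72.0% and then 53.8%.

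All 3 condensin I subunits lay lower in SAF-A 48 h. NCAPD2 (chr12:6603298-6641132, plus strand), a HEAT-repeat subunit, was at 28.6, 24.7, 26.8 and 14.6 FPKM, lower with intervals apart at 24 h (86.4%, -0.20) and at 48 h (54.7%, -0.83). NCAPG (chr4:17812436-17846487, plus strand), the other HEAT-repeat subunit, was at 31.0, 28.9, 30.9 and 11.7 FPKM, or 38.0% of control at 48 h (-1.32). NCAPH (chr2:97001479-97042833, plus strand), the kleisin, was at 9.67, 8.15, 8.43 and 1.69 FPKM, or 20.0% at 48 h (-1.81) from about 12 reads. In SAF-A 48 h 99.9% of the NCAPH level lay on a single RefSeq row that was near 0 in the other libraries. On its highest row alone the 48 h difference of NCAPH was -3.20. The 24 h intervals of NCAPG and NCAPH overlapped, so of the condensin I genes NCAPD2 alone was apart at both times. Exons of NCAPG share 1563 bases (32.9% of its exon bases) with LCORL on the opposite strand, and the kit and files do not say that strand was used. LCORL was listed at 4.51, 4.36, 3.06 and 1.53 FPKM.

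Condensin II subunits ranged more widely. NCAPD3 (chr11:134022337-134094426, minus strand) was at 14.1, 12.4, 13.8 and 3.65 FPKM, 88.0% of control at 24 h (-0.17) and 26.5% at 48 h (-1.67, about 24 reads). NCAPG2 (chr7:158423861-158497522, minus strand) was at 25.3, 21.8, 22.5 and 15.5 FPKM, or 86.2% at 24 h (-0.21) and 69.0% at 48 h (-0.51). Both genes were lower with intervals apart at both times. NCAPH2, the kleisin of condensin II and counted as constitutive here, was at 25.3, 18.4, 21.9 and 17.1 FPKM. It had the largest negative difference of all members at 24 h (72.7% of control, -0.44, intervals apart), and overlapping intervals at 48 h (-0.34, but 0.46 on its highest row alone). SCO2, on the opposite strand, shares 857 of its exon bases (22.6%) and was listed at 8.55, 8.63, 11.6 and 6.10 FPKM.

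Of the SMC5/6 pair SMC6 alone had intervals apart between siRNAs. SMC5 was at 17.0, 16.3, 14.7 and 12.6 FPKM, with overlapping intervals between siRNAs at both times. SMC6 (chr2:17845079-17935096, minus strand) was at 13.3, 10.6, 14.8 and 20.0 FPKM. SMC6 was below control at 24 h (79.5%, -0.31) and above it at 48 h (135%, 0.41), with intervals apart both times. Over the scalings and centrings its 48 h difference ranged from 0.13 to 0.68. Its share of the sum was 43.9%, 39.3%, 50.2% and 61.5%. The bounds of that share overlapped at 48 h (47.0% to 53.2% with control siRNA, 51.6% to 71.0% with SAF-A siRNA).

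CTCF, which marks the borders of cohesin loops, and YY1, which joins promoters to enhancers, showed no difference between siRNAs beyond their intervals. CTCF was at 11.0, 9.98, 10.2 and 10.3 FPKM, and YY1 at 29.7, 27.5, 32.6 and 29.2 FPKM. ZNF143 (chr11:9482512-9550071, plus strand), a promoter-bound protein found at loop anchors, was at 8.74, 7.60, 7.79 and 18.6 FPKM, or 239% of control at 48 h (1.16) with an interval of 11.2 to 26.6 FPKM. The ZNF143 value depends on which RefSeq transcript rows are counted. NM_003442 (2947 nt) was listed at 8.74, 7.60, 7.79 and 2.99 FPKM, while NM_001282656 (2944 nt) was under 0.01 FPKM in the other libraries and 15.6 FPKM in SAF-A 48 h. Read on its highest row alone, ZNF143 was lower at 48 h (-1.14) and lower with time under SAF-A siRNA (-1.11), and rescaled over NM_ rows it was 0.92 at 48 h, short of 2-fold.

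**Figure D3:**
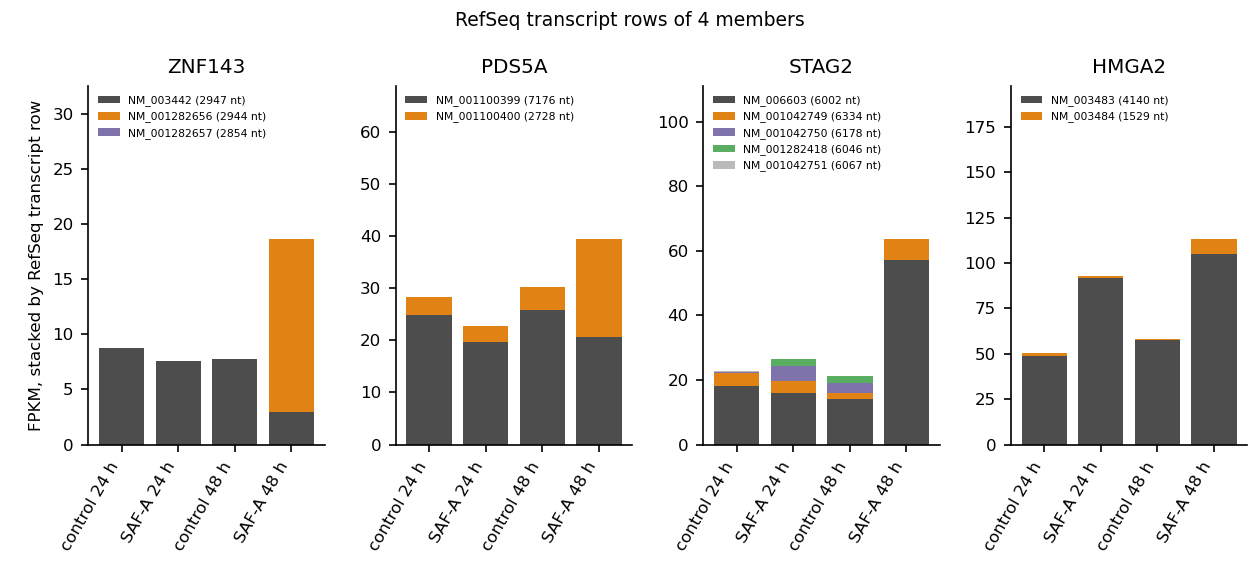
FPKM of the RefSeq transcript rows of ZNF143, PDS5A, STAG2 and HMGA2, stacked, in the 4 libraries. The taller SAF-A 48 h bar of ZNF143 is mostly NM_001282656 (15.6 FPKM) and that of PDS5A holds 18.7 FPKM of the short NM_001100400, whereas STAG2 and HMGA2 are carried mainly by 1 row each in every library.

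Single 50-base reads seldom tell near-identical transcripts apart. PDS5A also differed by row at 48 h: its long row NM_001100399 (7176 nt) was at 24.9, 19.8, 25.9 and 20.7 FPKM and its short row NM_001100400 (2728 nt) at 3.36, 2.98, 4.44 and 18.7 FPKM. Of the 37 members 18 had 1 row and 19 had several, and summed values are used throughout. For STAG2, NM_006603 alone was at 18.2, 16.0, 14.2 and 57.2 FPKM, which gives 1.94 at 48 h. HMGA2 rests on NM_003483, at 48.7, 91.6, 57.6 and 105 FPKM.

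The topoisomerase II genes moved apart at 48 h. TOP2A, the form made in dividing cells that untangles sister chromatids (chr17:38544773-38574202, minus strand), was at 105, 93.8, 106 and 50.7 FPKM. TOP2B, the form also made in resting cells (chr3:25639396-25705863, minus strand), was at 32.0, 29.2, 33.2 and 51.5 FPKM. Both rested on over 300 reads in SAF-A 48 h (342 and 322), so they are among the better-measured members there. TOP2A was at 89.8% of control at 24 h (-0.15, intervals apart) and 47.7% at 48 h (-1.05, but -0.83 to -0.99 under the 3 centrings), and TOP2B at 155% at 48 h (0.62, intervals apart). TOP2A held 76.5%, 76.3%, 76.2% and then 49.6% of their sum (43.9% to 55.3% from the interval bounds). TOP1, which relaxes DNA through nicks in 1 strand, was at 9.26, 8.55, 11.5 and 6.13 FPKM and at 53.2% of control at 48 h (-0.81, intervals apart, about 26 reads).

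**Figure D4:**
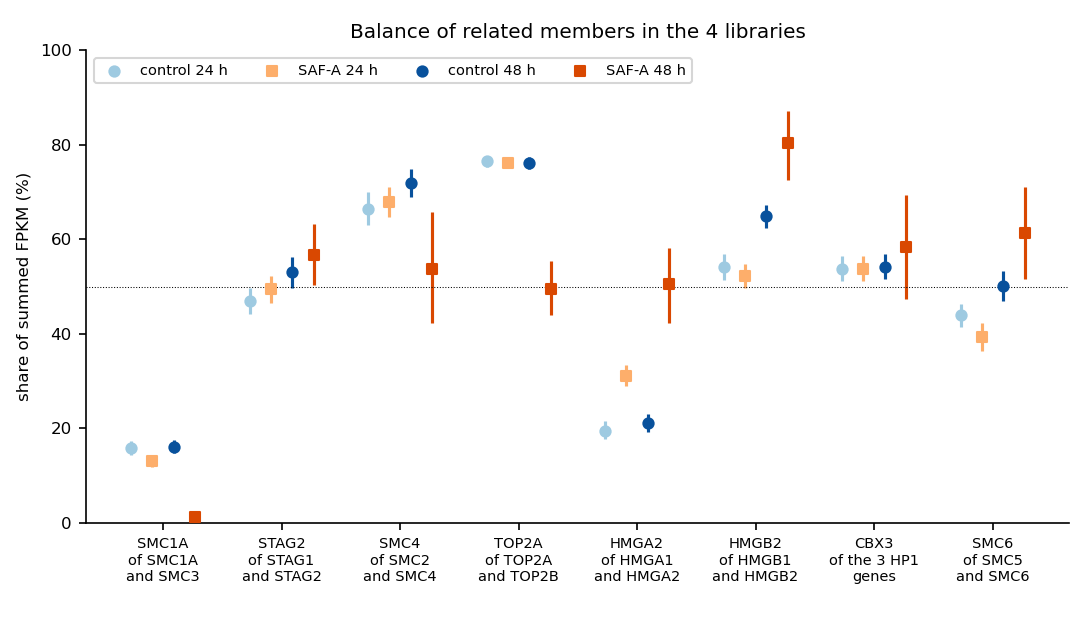
Share of 1 member in the summed FPKM of related members (percent), in the 4 libraries, with bars from the most extreme combination of the deposited 95% bounds. The share of TOP2A is 76.2% to 76.5% in 3 libraries and 49.6% in SAF-A 48 h, where that of SMC1A is 1.27%, whereas that of HMGA2 is above control in both SAF-A libraries, at 31.1% and 50.6%.

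The promoters of the members were searched for letters of 3 elements that textbooks tie to cell-cycle transcription. These are the cell cycle genes homology region (CHR, TTTGAA), the CCAAT box (CCAAT) and an E2F site (TTCCCGC), each searched on both strands in the 300 bases from 250 before to 50 after the RefSeq start site (GRCh38.p14). RefSeq promoters were matched for 33 of the 37 members, not for HMGB2, HMGA2, RAD21 and NCAPH2. The promoters of CDCA5, NCAPH and NCAPD3, which hold no CHR letters, are not shown. Those of TOP2A, NCAPD2, NCAPG and SMC4, which hold them, are shown as cell-cycle-linked examples and that of TOP2B for contrast with TOP2A. They lie at chr17:40417847-40418146 (minus strand), chr12:6493852-6494151 (plus), chr4:17810729-17811028 (plus), chr3:160399400-160399699 (plus) and chr3:25664323-25664622 (minus), and capitals mark matches to any of the elements on either strand.
TOP2A: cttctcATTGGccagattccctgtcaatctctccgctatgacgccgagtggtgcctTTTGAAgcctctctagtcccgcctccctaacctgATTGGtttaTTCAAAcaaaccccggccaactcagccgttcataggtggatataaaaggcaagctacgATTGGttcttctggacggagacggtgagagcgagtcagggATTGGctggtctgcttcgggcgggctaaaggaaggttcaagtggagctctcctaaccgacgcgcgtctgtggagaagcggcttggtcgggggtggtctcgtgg
NCAPD2: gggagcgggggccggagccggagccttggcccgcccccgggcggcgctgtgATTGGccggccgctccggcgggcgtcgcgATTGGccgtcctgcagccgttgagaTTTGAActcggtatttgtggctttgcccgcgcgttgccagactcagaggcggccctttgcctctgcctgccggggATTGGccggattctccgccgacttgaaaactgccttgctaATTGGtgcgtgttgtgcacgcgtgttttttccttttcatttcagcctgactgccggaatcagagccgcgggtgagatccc
NCAPG: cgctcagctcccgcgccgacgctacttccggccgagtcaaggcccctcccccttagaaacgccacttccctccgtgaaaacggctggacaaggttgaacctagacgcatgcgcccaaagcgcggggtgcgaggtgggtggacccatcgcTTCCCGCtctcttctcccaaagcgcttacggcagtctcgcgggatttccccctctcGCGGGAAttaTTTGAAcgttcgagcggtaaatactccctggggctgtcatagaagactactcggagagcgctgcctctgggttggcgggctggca
SMC4: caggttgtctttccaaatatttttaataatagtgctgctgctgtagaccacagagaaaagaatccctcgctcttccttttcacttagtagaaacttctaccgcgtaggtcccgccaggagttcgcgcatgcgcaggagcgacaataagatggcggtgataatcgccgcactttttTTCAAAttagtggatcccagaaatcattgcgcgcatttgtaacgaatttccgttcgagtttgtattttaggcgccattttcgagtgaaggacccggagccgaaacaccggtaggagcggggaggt
TOP2B: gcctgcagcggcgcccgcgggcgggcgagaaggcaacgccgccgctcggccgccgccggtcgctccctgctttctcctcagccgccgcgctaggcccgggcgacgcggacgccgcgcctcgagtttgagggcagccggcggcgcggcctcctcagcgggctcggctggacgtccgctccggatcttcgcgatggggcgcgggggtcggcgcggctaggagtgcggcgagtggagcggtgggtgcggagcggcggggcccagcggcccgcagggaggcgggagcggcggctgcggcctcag

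In the TOP2A promoter CHR letters stand at 194 to 189 and, reversed, at 151 to 146 bases before the start, among 4 CCAAT boxes, all in reverse orientation. NCAPD2 has the same makeup with 1 CHR and 4 reversed CCAAT boxes, NCAPG has 1 CHR 35 to 30 bases before the start beside 2 E2F sites, and SMC4 has 1 reversed CHR. None of these matches overlap. TOP2B, whose window is richer in G and C than that of TOP2A, holds none of the 3 elements. The CHR letters occur in 6 of 9 cell-cycle-linked promoters (66.7%; TOP2A, NCAPD2, NCAPG, NCAPG2, SMC2 and SMC4), in 3 of 24 constitutive ones (12.5%; SMC3, CTCF and PDS5B), in 9.82% of the promoters of 8833 tested genes and in 15.4% of all 27303 promoters. CDCA5, NCAPH and NCAPD3, each at least 2-fold lower at 48 h, have no CHR letters in this window. NCAPD2 (-0.83), NCAPG2 (-0.51) and SMC2 (0.09, intervals overlapping) have them and were not 2-fold lower. CCAAT letters were found in 3 of 9 and 11 of 24 promoters (38.2% of tested genes), and E2F letters in 2 of 9 and 2 of 24 (11.0%). These are matches of short letter strings and show no binding. The cell-cycle-linked group was named for its expression in the cell cycle, so its share of CHR letters does not bear on the differences between siRNAs.

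HMGA2 was the member that differed most between siRNAs at 24 h. HMGA proteins bend AT-rich DNA, and HMGA2 is made mainly in embryonic, immortalised and tumour cells. HMGA2 (chr12:66218240-66360071, plus strand) was at 50.7, 92.8, 58.3 and 113 FPKM. The control values are near each other and both SAF-A values lie above both of them, with intervals apart at both times. Its level was 183% of control at 24 h (log2 difference 0.86, 0.71 to 1.01 from the interval bounds) and 194% at 48 h (0.94, 0.65 to 1.22), just under 2-fold on this scale. Over the scalings and centrings tried the 24 h difference ranged from 0.68 to 0.95 and the 48 h difference from 0.65 to 1.13, past 2-fold under each of the 3 centrings. Of the 11053 tested genes, 60 (0.543%) were at least as much higher at 24 h, 1716 (15.5%) at 48 h and 33 (0.299%) at both times. HMGA2 was the only member higher with intervals apart at both times, as were 450 tested genes (4.07%).

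HMGA1, the more widely expressed relative, was lower at 48 h when its rows were summed. HMGA1 (chr6:34204577-34214008, plus strand) was at 209, 205, 218 and 110.3 FPKM, with overlapping intervals at 24 h and 50.6% of control at 48 h (-0.98, intervals apart). On its highest row alone, NM_145899 at 88.6, 90.8, 105 and 108.6 FPKM, HMGA1 did not show this decrease (0.05). That row held 42.5%, 44.2%, 48.2% and then 98.5% of the summed level, so this value also sets a part against the whole. The share of HMGA2 in their sum was 19.5% and 21.1% in the control libraries, 31.1% in SAF-A 24 h and 50.6% in SAF-A 48 h.

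The nucleosome-binding HMGN genes and HMGB1 were all lower with SAF-A siRNA at 48 h. HMGN2 (chr1:26798902-26803133, plus strand) was at 45.5, 40.6, 39.1 and 6.48 FPKM, 89.3% of control at 24 h (-0.16, intervals apart) and 16.6% at 48 h (-2.42), the most negative value of any member on the log2(FPKM + 1) scale. Relative to control SMC1A was lower still, and with a pseudocount of 0.1 its difference was -3.08. HMGN1 (chr21:40714241-40721047, minus strand) was at 86.8, 89.1, 70.9 and 29.3 FPKM, or 41.3% at 48 h (-1.25). HMGB1, a DNA-bending protein (chr13:31032879-31040081, minus strand), was at 85.5, 95.8, 60.5 and 17.0 FPKM. HMGB1 was at 112% of control at 24 h (0.16, intervals apart, but -0.02 on the TPM scale) and at 28.2% at 48 h (-1.77). All 3 genes were also lower with intervals apart in control 48 h than in control 24 h (HMGB1 -0.49, HMGN1 -0.29, HMGN2 -0.21).

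HMGB2 (chr4:174252527-174255595, minus strand), the relative of HMGB1 that accumulates in dividing cells, was at 101, 105, 112 and 70.3 FPKM. It was 62.5% of control at 48 h (-0.67, intervals apart), and its share of the HMGB1 and HMGB2 sum was 54.2%, 52.3%, 65.0% and 80.5%. The sign for HMGB2 differs when its highest row is read alone. NM_001130688 was at 50.4, 33.8, 40.0 and 70.3 FPKM, which gives 0.80 at 48 h and 1.03 over time with SAF-A siRNA. The other HMGB2 rows were near 0 in SAF-A 48 h. NM_001130688 held 49.8%, 32.3%, 35.6% and then 99.97% of the summed level, so its ratio at 48 h sets a part against the whole. Many processed copies of these genes exist: the RefSeq table names 50 pseudogenes of HMGB1, 48 of HMGN2, 38 of HMGN1, 10 of CBX3, 8 of HMGA1 and 5 of CBX1. How reads that map to several places were counted is not given in the sources used here, so these values are uncertain to that extent.

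The 3 HP1 genes kept similar proportions while all were lower at 48 h. CBX1 (HP1 beta, chr17:46147414-46178883, minus strand) was at 80.7, 85.6, 75.0 and 28.0 FPKM, 37.3% of control at 48 h (-1.39). CBX3 (HP1 gamma, chr7:26240831-26253227, plus strand) was at 124, 126, 118 and 54.8 FPKM, or 46.3% (-1.10). CBX5 (HP1 alpha, chr12:54624731-54673915, minus strand) was at 25.7, 22.9, 24.8 and 10.9 FPKM, or 44.1% (-1.11). The CBX3 call ends when centred on the median of tested genes (-0.99) or within bins of GC content (-0.83), and that of CBX5 within quartiles of length (-0.89) or on its highest row (-0.60). At 24 h no HP1 gene had intervals apart. CBX3 made up 53.8%, 53.8%, 54.2% and 58.5% of their sum, shares whose bounds overlap. CBX1 and CBX3 have the copies named above, CBX5 has 1.

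CHD4, the ATPase of the NuRD deacetylase complex (chr12:6679248-6716551, minus strand), was at 37.3, 34.7, 40.2 and 51.5 FPKM. It was slightly below control at 24 h (93.0%, -0.10) and above it at 48 h (128%, 0.35), with intervals apart both times. Over the scalings and centrings its 24 h difference ranged from -0.28 to -0.02 and its 48 h difference from 0.05 to 0.57.

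By intervals alone, without a size threshold, more members stood out. At 24 h 2 members were higher (HMGA2 and HMGB1; 8.60% of tested genes) and 12 lower (SMC1A, MAU2, PDS5A, CDCA5, NCAPD2, NCAPD3, NCAPG2, NCAPH2, SMC6, TOP2A, HMGN2 and CHD4; 32.4% of members, 18.3% of tested genes). At 48 h 8 were higher (SMC3, STAG1, STAG2, SMC6, ZNF143, TOP2B, HMGA2 and CHD4; 22.7%) and 19 lower (51.4% of members, 25.7% of tested genes). Between the control libraries 5 were higher (CDCA5, YY1, TOP1, HMGA2 and CHD4; 19.0%) and 7 lower (RAD21, STAG1, WAPL, SMC5, HMGB1, HMGN1 and HMGN2; 13.2%), and between the SAF-A libraries 8 were higher (24.5%) and 19 lower (22.7%). Lower with intervals apart at both times were 7 members, CDCA5, HMGN2, NCAPD2, NCAPD3, NCAPG2, SMC1A and TOP2A, as were 1111 tested genes (10.1%). Intervals narrow with depth and length, and members are abundant and long, so a share by this rule is not read against the background as a property of the members.

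**Figure D5:**
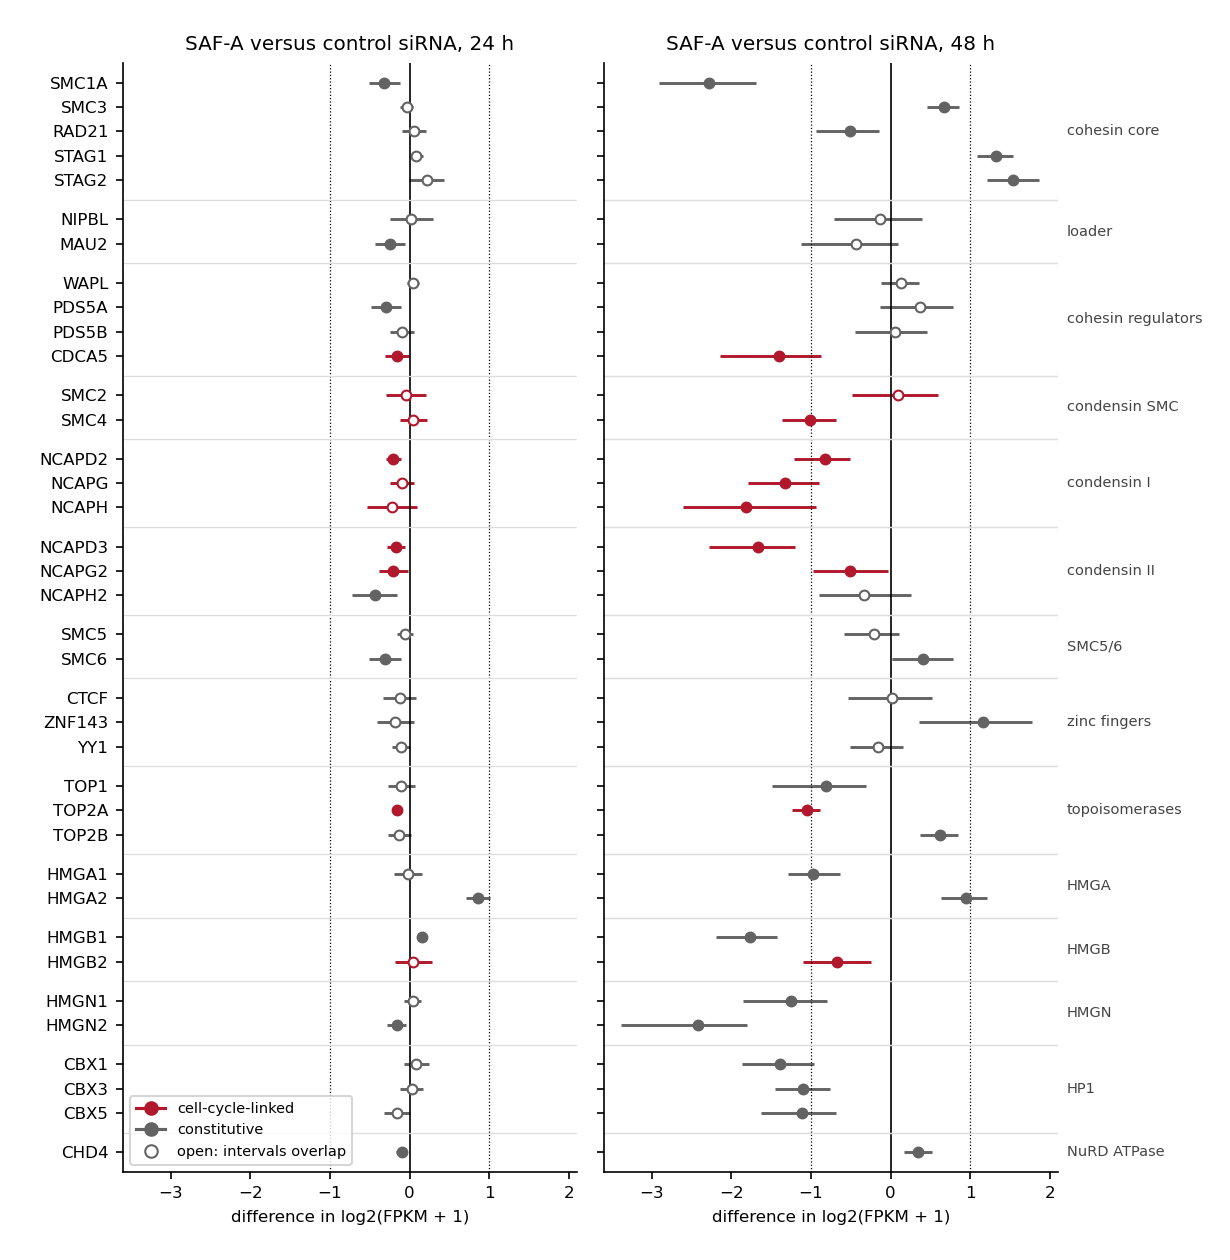
Difference in log2(FPKM + 1) between SAF-A and control siRNA for each member at 24 h and at 48 h, with bars from the most extreme combination of the deposited 95% bounds, cell-cycle-linked members in red, and open circles where the intervals overlap. At 24 h all members lie within 1 of zero, HMGA2 farthest at 0.86, and at 48 h they spread from -2.42 (HMGN2) to 1.54 (STAG2).

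Genes that work with the members were read from lists of partners, and none of these was at least 2-fold changed at 24 h. At 48 h the counts below stand beside 18.5% of tested genes lower and 14.3% higher, so 1 gene of a short list is near that background. Of 9 tested cohesin partners 4 were lower at 48 h and none higher. ESCO2, which acetylates SMC3 in S phase, was at 20.0, 14.6, 18.9 and 1.30 FPKM (-3.11, about 5 reads), and ESCO1, its constitutive relative, at 5.72, 5.29, 8.19 and 11.5 FPKM (0.44, intervals overlapping). The separase ESPL1 (-1.47), its inhibitor PTTG1 (-2.58) and the repair protein BRCA2 (-1.32) were the other lower ones. Of 4 condensin partners 1 was lower, MKI67, the chromosome periphery protein (12.5, 11.1, 11.5 and 2.07 FPKM, -2.02), and AKAP8 was the highest (0.10). Of 7 SMC5/6 partners the SUMO ligase NSMCE2 was higher (19.2, 20.1, 23.8 and 80.7 FPKM, 1.72) and EID3 lower (6.34, 5.54, 9.90 and 0.648 FPKM, -2.73, about 1 read).

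Of 6 topoisomerase partners 1 was lower, TOP3A (6.30, 4.93, 6.51 and 1.89 FPKM, -1.38), and none was higher, with TOP3B at 0.56. ADNP, listed with the zinc finger group, was lower (6.12, 6.43, 5.98 and 1.14 FPKM, -1.71). Of 5 HMG relatives HMGB3 was lower (12.6, 13.5, 9.87 and 1.10 FPKM, -2.37), and HMGN3 had the highest value, 0.48. Of 8 HP1 partners 3 were lower, the histone methyltransferases SUV39H1 (-1.32) and SUV39H2 and the chromatin assembly factor subunit CHAF1A (-1.26). SUV39H2 was at 19.2, 13.9, 18.6 and 3.84 FPKM (-2.02). LBR, the lamin B receptor that binds HP1, was highest at 0.65 (24.0, 43.5, 20.7 and 33.0 FPKM), but 1 or more of its rows carried a failed status, so its intervals were not used. Of 11 other NuRD genes the deacetylase HDAC1 was higher (37.7, 38.5, 39.8 and 122 FPKM, 1.60), none was lower, GATAD2A was lowest at -0.75, and the median was 0.49.

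GC content and length were examined beside the differences. Across the 37 members the 24 h difference had a Spearman correlation of -0.45 with the GC content of exons and -0.21 with spliced length, against -0.18 and -0.10 over 10973 tested genes. At 48 h the members' values were -0.25 and 0.25, against 0.04 and -0.09. The points share libraries and are not replicates, and no test was made. The 13 lower members at 48 h had a median GC of 44.4% and a median length of 4752 nt, the 3 higher members 40.6% and 5166 nt, and the other 21 members 41.3% and 4853 nt.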

How the data were processed

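RNA-seq libraries of RPE1 cells, 1 for each of 4 conditions, were prepared with NEBNext Ultra and read on a HiSeq2500, per the labels' protocols. The submitters' processing notes name TopHat2 2.0.10, Bowtie2 2.1.0, Cufflinks 2.2.1, Cuffdiff and hg19, with no roles. The authors deposited FPKM with 95% bounds and a status for 47338 RefSeq transcript rows, per the file headers; strand and multiply mapped reads are not mentioned. The exon and attribute field of the transcript files, per the file headers, gave lengths and a coverage value, and coverage divided by FPKM gave depth. Of 798 member exons 93.1% were identical in GENCODE 44 on GRCh37.

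Rows were joined to symbols through a RefSeq table of GRCh38.p14 (97.1% matched; names and promoters only), and FPKM and bounds were summed per symbol, which widens intervals. Tested genes, 11053 in all with the 37 members, averaged 1 FPKM or more over the libraries and were 300 nt or longer when spliced; 14 of them, no member, had a status other than OK, and their intervals were not used. Differences are in log2(FPKM + 1), with a pseudocount of 1. Estimated reads assume fragments of 200 ± 80 nt. Intervals cover the estimation of abundance within a library, not variation between cultures. No model was fitted, and the functions that make the calls were tested on simulated data. The simulation gave all libraries the same depth and each gene a single row. It therefore does not cover the shallow SAF-A 48 h library or genes with several rows. Named are all members, HNRNPU, partners changed 2-fold at 24 h and the largest rise and fall of each partner list at 48 h, of which 1 result is not reported here; ESPL1, PTTG1, BRCA2, SUV39H1 and CHAF1A, and the proliferation markers changed 2-fold, were named after their values were seen. Members, lists and alternatives were chosen with earlier results of these data known. Alternatives were another pseudocount, filter, threshold or scale, centring, the highest row, and other cell-cycle choices; centring within 10 bins of GC content was added after seeing the data. Python 3.11.15, pandas 2.3.3, numpy 2.4.6, scipy 1.17.1 and matplotlib 3.10.9 were used.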

Additional observations from a re-analysis of the deposited data

Results flagged for a closer look

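For 3 members the deposited intervals of SAF-A and control siRNA were apart in opposite directions at 24 h and at 48 h. SMC6 differed by -0.31 at 24 h and by 0.41 at 48 h on the log2(FPKM + 1) scale. HMGB1 differed by 0.16 and by -1.77, and CHD4 by -0.10 and by 0.35. Among all tested genes 394 (3.57%) showed intervals apart in opposite directions. With 1 library per condition the difference between the times was not tested. On the TPM scale the 24 h difference of HMGB1 was -0.02, and for CHD4 it was -0.02 after centring within bins of GC content. Over the scalings and centrings the 48 h difference of SMC6 was as low as 0.13 and that of CHD4 as low as 0.05. That of HMGB1 stayed between -2.11 and -1.50.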

How the results depend on the processing

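No paired analysis was possible because each condition has 1 library; the 2 times are conditions, not replicates, and a fit with time as a block was not run. Of 88 recomputed counts of changed members 80 stayed within 1.5 times the reported count. Many of these counts could hardly move, so this share is no measure of robustness. At 24 h and with control siRNA over time no member was changed as reported. Dropping the FPKM filter or asking for intervals apart could not alter a count, because all members passed and all calls were already apart. Of 88 recomputed group medians 87 moved by no more than a limit set from the intervals of the members' differences. This limit was the group median of the distance from the middle of an interval to its end. Members at least 2-fold higher with time under SAF-A siRNA, 2 as reported, numbered 5 on the TPM scale, 0 after rescaling over NM_ rows and 7 at a 1.5-fold threshold. At 1.5-fold, 1 member was higher at 24 h (HMGA2) and 6 at 48 h. With the highest transcript row alone, 1 member was lower at 24 h (CBX5, -1.32), and with control siRNA over time 1 was higher (NCAPH, 2.04) and 1 lower (CBX5, -1.21); the cause was not tested. ZNF143 reversed on its highest row, to -1.14 at 48 h and -1.11 over time under SAF-A siRNA, since that row is not the one that holds its SAF-A 48 h value. The 24 h median of the cell-cycle-linked members was -0.34 on the TPM scale, against -0.16. Of 1320 recomputed member differences 1228 moved by no more than that distance in their own interval and 92 by more, the ZNF143 values among them. In all 80 differences changed sign, 9 of them with a size of at least 0.2 both ways, all on the highest row (ZNF143, HMGB2, HMGA1, SMC4, PDS5A, NCAPH and NCAPH2). At 48 h the 2-fold calls of SMC4, TOP2A, CBX3, CBX5 and ZNF143 end under 1 or more alternatives, and each centring leaves 10 of 13 lower members and makes 4 higher, with HMGA2. With a mean of at least 5 FPKM 34 of the 37 members were kept, and 13 were lower and 3 higher at 48 h. The background at that filter differed: of 7710 tested genes 1310 were higher and 1284 lower at 48 h, with a median of 0.04. As reported that median was -0.11. Depth limits the SAF-A 48 h library, in which 1 FPKM of a 2 kb transcript is 2.19 reads.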
